A study of Rattus norvegicus with 12 samples.

Results

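The Control libraries of differentiated 1464R cells were profiled by bulk RNA sequencing, and they were chosen as the 3 libraries, of 12 in the series, that the labels place in group 1 with no treatment. 1464R is an immortalized line of adult rat neural stem cells, so every Control library stems from 1 line. The cells were kept for 4 days in serum-containing differentiation medium with retinoic acid, moved to a serum-free medium that still held retinoic acid, and collected 48 h later with no adenovirus, no ethacrynic acid and no edaravone. The study's methods describe a DMSO vehicle for treatments without edaravone, which the labels do not mention for Control. The series was designed around the response of such cells to TDP-43 expression, ethacrynic acid and edaravone, and the other 9 libraries were not used. The Control libraries served here to answer which genes and lineage programmes the culture expressed without the study's treatments, with the spread between replicates as the error. The labels did not state whether the 3 replicates were separate cultures, while a legend of the study speaks of 3 experiments for the sequencing without tying libraries to them.

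Oligodendrocytes are the cells that wrap axons of the central nervous system in myelin, a stack of membranes rich in cholesterol and galactolipids and held together by a few very abundant proteins. Their precursors carry growth factor receptors and proteoglycans at the surface and, once committed, switch on a set of transcription factors that drives the myelin genes. Neurons, astrocytes and oligodendrocytes can all arise from neural stem cells, and retinoic acid, which acts through nuclear receptors that bind repeated half-sites in DNA, is a common additive for differentiating such cells in culture.

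Levels are given in TPM, a transcript abundance scaled by length so that the values of a library sum to 1000000, and levels of different genes can thus be set side by side. The 3 values after a gene are replicates 1, 2 and 3 of Control in that order, and ± is the SD over these 3 libraries (n = 3 throughout). A gene with a mean of at least 1 TPM is called expressed. By this rule 11851 of 32883 genes in the tables (36.0%) were expressed, and 11283 of 22250 protein-coding genes (50.7%). The share of 50.7% is the one to set beside the share of each gene list below. The libraries held 20801000, 22037200 and 23119700 counts in ascending order and were alike in depth, with 11752 to 11929 genes at 1 TPM or more. In every one of the 3 libraries 11215 genes reached that level, 7857 genes had a mean of at least 10 TPM, 1792 of at least 100 TPM and 120 of at least 1000 TPM. The median coefficient of variation (CV, the SD as a percentage of the mean) was 10.2% over the expressed genes and 5.94% over the 3233 genes of at least 50 TPM, and the biological coefficient of variation estimated by edgeR was 13.4%. Log2 levels of the expressed genes correlated between libraries with r of 0.984 to 0.985 (a description across 11851 genes, which are not independent replicates). A gene with no count in a library lay below the 3 counts that a count of 0 allows, which is 0.130 to 0.144 CPM (counts scaled to a library total of 1000000).

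Messenger RNA of myelin and of energy metabolism stood at the head of the transcriptome. Mbp (ENSRNOG00000016516, chr18:79326738-79437310 in Rnor_6.0), which encodes myelin basic protein and glues the inner faces of the myelin membrane together, was the most abundant gene, at 15284, 14383 and 17865 TPM. It was first in each library, and the next gene was Mt-co3, a mitochondrially encoded subunit of cytochrome c oxidase, with 14083, 13342 and 14395 TPM. The ranges of both genes over the libraries overlapped slightly. Mt-atp6, a mitochondrially encoded subunit of ATP synthase, followed at 12250.4, 11295 and 11342 TPM. Ckb (ENSRNOG00000010872, chr6:136142956-136145837), the brain-type creatine kinase that buffers ATP through phosphocreatine, was the fourth gene at 11190.5, 11449 and 10232 TPM. It averaged 10957 ± 641 TPM, a level whose range overlapped that of Mt-atp6 above it and of Dbi below it. From counts and gene length Ckb had 12972 TPM, above Mt-co3 (11592 TPM) and Mt-atp6 (8605 TPM). The order of these 3 genes thus depends on how TPM was computed. Dbi, which encodes the acyl-CoA binding protein, was listed at 10073, 11408 and 9977 TPM, but its level from counts and gene length was 2217 TPM, so its place in the order depends on how TPM was computed. Ubb, a ubiquitin gene, had 7519, 8122 and 7927 TPM, wholly below the range of Dbi.

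Among the other genes of the leading 20 were a mitochondrial ribosomal RNA (7472 ± 565 TPM), a ferritin light chain 1-like gene (7442 ± 437 TPM), Actb, the cytoskeletal beta-actin (7328 ± 51.6 TPM), and Cnp (chr10:88490798-88497356), an enzyme of the non-compact layers of myelin, at 6197, 5888 and 6994 TPM. Replicate 3 was the highest library for Mbp and Cnp, and replicate 2 was the lowest for both of these myelin genes. Cd81 (5218 ± 350.0 TPM) and Cd63 (4589.9 ± 257 TPM) encode tetraspanins of the plasma membrane and of vesicles. Ppia, which encodes cyclophilin A, had 5201 ± 108 TPM. Fabp5, a carrier of fatty acids, had 5019.7, 3838 and 4763 TPM, and Lgals1, a lectin that binds galactosides, had 3815, 5861 and 3920.3 TPM. Lgals1 was thus higher in replicate 2 than in the other 2 libraries, which lay close together. An intergenic non-coding RNA without a gene name, AC134224.3 (chr1:221158098-221158792), was listed at 6833, 7447 and 4225 TPM and was lower in replicate 3. Mt-co2 (6466 ± 123 TPM), Mt-co1 (5989 ± 334 TPM) and Mt-cyb (4024 ± 226 TPM) encode respiratory chain subunits. The 10 most abundant genes made up 10.3% ± 0.172 of all TPM, and between 395 and 412 genes made up 50% of the TPM of a library. The 13 mRNAs encoded by the mitochondrial genome took 5.36% to 5.69% of TPM, and 108 cytosolic ribosomal protein genes took 4.79% to 5.17%. The ferritin, ubiquitin and cyclophilin genes (Ubb is annotated as a pseudogene in the tables) have near-identical copies elsewhere in the genome and carried fractional counts, which makes the split of reads among the copies uncertain.

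**Figure D1:**
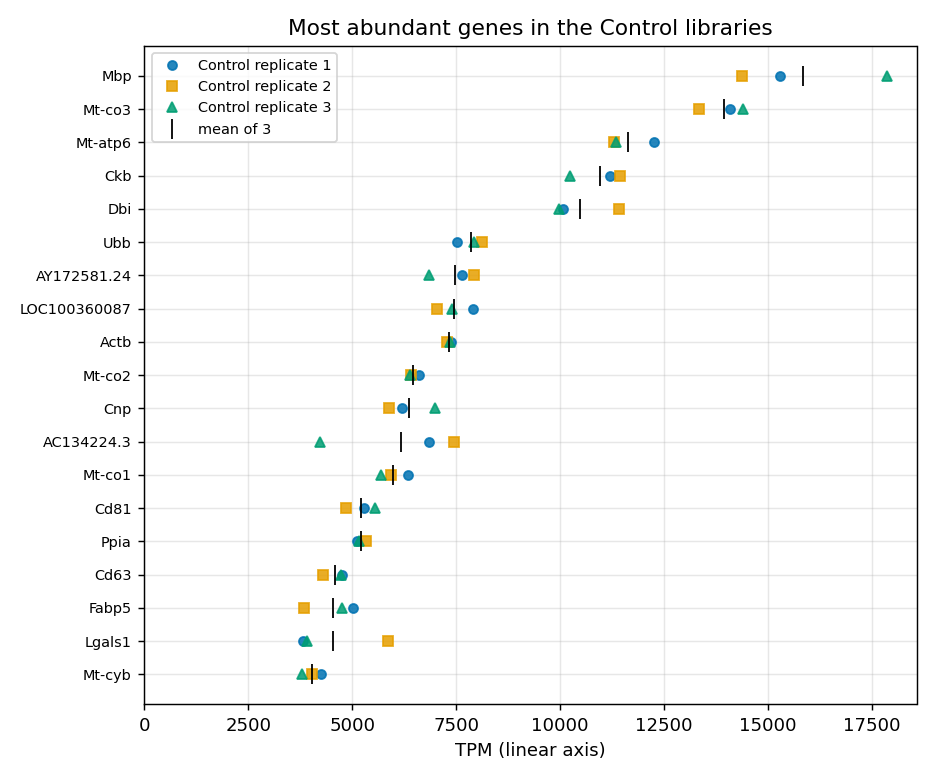
Genes among the 20 of highest mean TPM, from the most abundant at the top down; the x axis is TPM on a linear scale from 0, each symbol is 1 Control library and the bar is the mean of the 3. Mbp lies between 14383 and 17865 TPM and Ckb between 10232 and 11449 TPM; relative to its mean, the spread is widest for AC134224.3 and Lgals1.

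Genes of the myelin sheath were expressed nearly throughout. Of 20 genes of myelin structure measured, 17 were expressed, a share of 85% against 36.0% of all genes and 50.7% of protein-coding genes, and 11 of them exceeded 100 TPM. The 20 genes together summed to 38551, 35307 and 44066 TPM, which was 3.93% of all TPM. The median member had 195 TPM. Mag, an adhesion molecule on the inner myelin membrane that faces the axon, had 1489, 1368 and 1902 TPM, and Mog, an immunoglobulin-fold glycoprotein of the outermost layer, had 241, 210.0 and 325 TPM. Both were highest in replicate 3, and for both the other libraries lay closer together. Cd9, a tetraspanin that oligodendrocytes share with other cells, had 3428 ± 213 TPM, and Bcas1, which marks oligodendrocytes that are forming myelin, had 736 ± 75.4 TPM. Pllp, the plasmolipin of myelin, had 674 ± 67.3 TPM, Gsn, an actin-severing protein, 278 ± 26.4 TPM, Opalin, a glycoprotein confined to mammalian central myelin, 215 ± 44 TPM, and Tspan2, a tetraspanin, 175 ± 23.1 TPM. Lower levels were seen for Pmp22 (72.2 TPM), Gpr37 (45.5 TPM), the gap junction gene Gjb1 (9.37 TPM), and Hapln2 (2.10 TPM), which encodes a link protein of the node of Ranvier. Mobp, which encodes a small basic protein of compact myelin, was listed at 44.4, 45.8 and 94.4 TPM, far higher in replicate 3 than in the other libraries. Its mean from counts and gene length was lower, at 24.4 TPM.

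The 3 myelin genes that were not expressed were Mal, Cldn11 and Ermn. Mal, a proteolipid of lipid-raft membranes, had no count in any library. Cldn11, which forms the tight junctions between myelin layers, averaged 0.215 TPM, and Ermn, a cytoskeletal protein of mature oligodendrocytes, averaged 0.0600 TPM. Mag and Mog, also genes of mature oligodendrocytes, were plainly detected in the same libraries.

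The enzymes that build the myelin membrane were all expressed, 17 of 17 of the list, at 3246 ± 346 TPM in sum. Cers2, a ceramide synthase for very long acyl chains, had 573, 524 and 627 TPM, and Elovl1, an elongase of such chains, had 385, 362 and 450.3 TPM. Ugt8, the enzyme that makes galactosylceramide, had 238, 231 and 288 TPM. Each of them was highest in replicate 3 and lowest in replicate 2. Gal3st1, which sulfates galactosylceramide to sulfatide, had 172 ± 15.9 TPM, and Fa2h, which hydroxylates the fatty acids of these lipids, had 93.6 ± 16.7 TPM. Aspa, which releases acetate for lipid synthesis from N-acetylaspartate, had 322 ± 35.8 TPM, Enpp6, a choline phosphodiesterase of newly forming oligodendrocytes, 292 ± 37.6 TPM, and Degs1, a ceramide desaturase, 260.4 ± 18.9 TPM. Of the cholesterol pathway, Hmgcs1 had 224 ± 41 TPM, Sqle 149.7 ± 13.6 TPM and Fdft1 116 ± 11.6 TPM. The least abundant members were Scd (29.4 TPM), a fatty acid desaturase, and Sptlc2 (32 TPM), a subunit of the first enzyme of sphingolipid synthesis.

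Transcription factors and signals of the oligodendrocyte lineage were expressed in 13 of 14 cases (92.9%). Sox10, the factor that acts directly on many myelin genes, was among the steadiest, with 630.0, 613 and 642 TPM and a CV of 2.35%. Olig1 (1107, 1025 and 1232 TPM) exceeded Olig2 (205, 181 and 231 TPM), both helix-loop-helix factors of the lineage, by a ratio of 5.47 ± 0.164 within libraries. Myrf, the membrane-bound factor that switches precursors to myelination, had 75.3, 79.4 and 77.9 TPM, with no library apart. Sirt2, a tubulin deacetylase abundant in myelin, had 2476 ± 359 TPM and was the leading member. Sox8, a relative of Sox10, had 266 ± 23.8 TPM, Carhsp1, an RNA-binding cold shock protein, 219 ± 17.3 TPM, and Gpr17, a receptor of committed, not yet myelinating cells, 149.9 ± 14.3 TPM. Zeb2 (95.8 TPM), Zfp488 (57.6 TPM), Zfp536 (43 TPM), Tcf7l2 (26.7 TPM) and Nkx2-2 (23.5 TPM) encode further nuclear regulators. Only Nkx6-2, a homeobox factor of maturing oligodendrocytes, fell short of the minimum, at 0.382 TPM.

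Genes of the precursor list were expressed in part. Pdgfra, the receptor through which PDGF drives precursor division, averaged 0.345 TPM, and Cspg4, the NG2 proteoglycan, 0.325 TPM, so that neither of the 2 defining surface markers reached 1 TPM in any library. Even so, 9 of 13 members measured were expressed (69.2%), beside 50.7% of all protein-coding genes. They were led by Bcan, the proteoglycan brevican, at 511, 466 and 586 TPM, and Tnr, the matrix protein tenascin-R, at 130.2, 140.1 and 142 TPM. C1ql1, a secreted protein of committed precursors, had 84.9 ± 1.12 TPM, and Vcan, the proteoglycan versican, had 47.4 ± 2.00 TPM. Sox6 (24.8 TPM), Ptprz1 (23.5 TPM) and Ncan (17.9 TPM) were lower, and Gpr75 (0.378 TPM) and Neu4 (0.188 TPM) were below 1 TPM. With the defining markers below 1 TPM, the expressed members alone do not establish a precursor programme.

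The windows around the start of Cnp and Ckb, 250 bases before to 50 after it (RefSeq, GRCr8), are shown because these genes were both among the 12 most abundant. Capitals mark ACAAAG, a Sox-type motif, and TATAAA, searched on both strands. Cnp lies at chr10:86011254-86011553 on the plus strand and Ckb at chr6:136553415-136553714 on the minus strand.
Cnp: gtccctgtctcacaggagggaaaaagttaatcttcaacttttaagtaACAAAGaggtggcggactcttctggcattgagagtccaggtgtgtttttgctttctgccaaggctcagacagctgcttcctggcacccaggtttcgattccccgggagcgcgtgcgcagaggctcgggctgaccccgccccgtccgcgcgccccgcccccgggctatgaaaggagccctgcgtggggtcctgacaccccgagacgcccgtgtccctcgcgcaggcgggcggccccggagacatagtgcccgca
Ckb: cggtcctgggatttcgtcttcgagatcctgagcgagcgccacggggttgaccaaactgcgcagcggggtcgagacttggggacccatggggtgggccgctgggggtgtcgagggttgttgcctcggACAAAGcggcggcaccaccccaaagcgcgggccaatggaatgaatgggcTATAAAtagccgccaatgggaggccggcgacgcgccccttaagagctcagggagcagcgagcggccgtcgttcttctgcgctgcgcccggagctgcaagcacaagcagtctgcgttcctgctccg
ACAAAG began 203 bases before the start in Cnp and 124 before it in Ckb, and TATAAA 75 bases before it in Ckb. Of 33469 windows of this length, 18.8% held ACAAAG and 14.2% held TATAAA, so a match to either is common, and it is a description of these letters only.

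**Figure D2:**
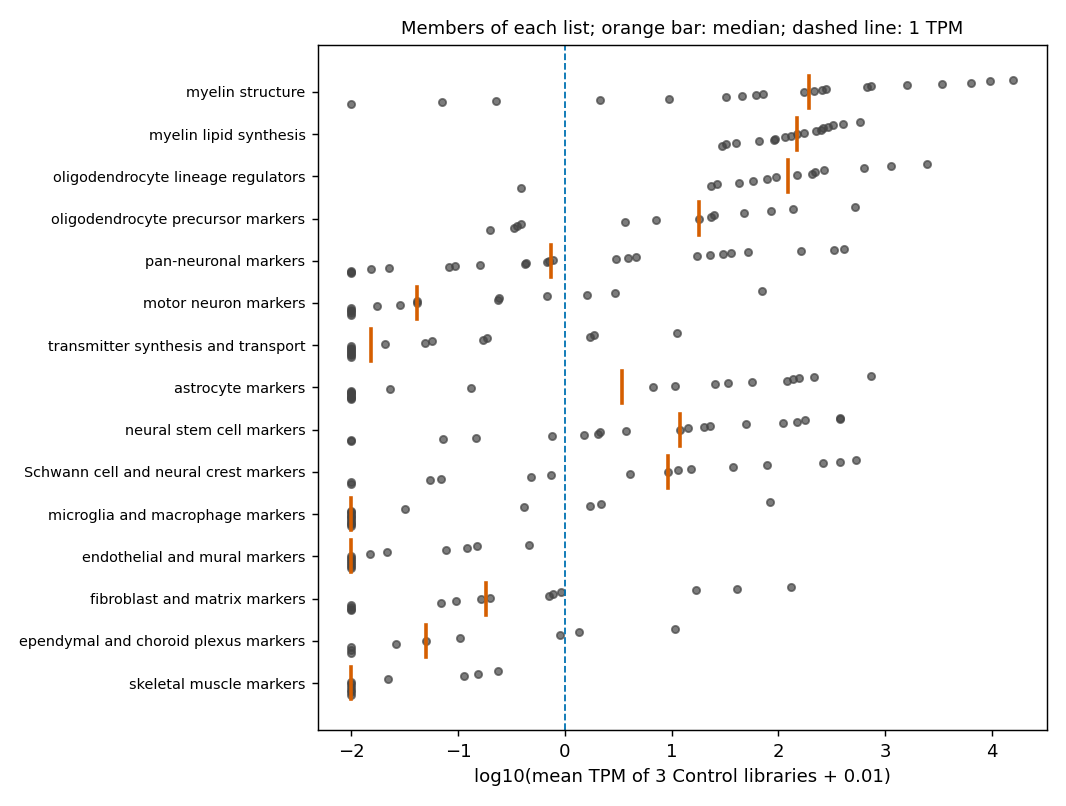
Mean TPM over the 3 Control libraries of every measured member of 15 marker lists, as log10(TPM + 0.01); each point is 1 gene, the orange bar is the list's median and the dashed line is 1 TPM. Genes with no count sit at the left edge. The 3 oligodendrocyte and myelin lists at the top have medians above 100 TPM, and the medians of the neuronal and motor neuron lists lie below 1 TPM.

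The labels describe the differentiated cells as resembling motor neurons, and the defining genes of that cell type were at or near 0. Of 15 motor neuron genes 3 were expressed (20%). Mnx1, the homeobox factor of spinal motor neurons, had no count in any library, and neither had Slc18a3 and Slc5a7, the vesicular acetylcholine transporter and the choline transporter, Prph, the neurofilament peripherin, or Chodl, a marker of fast motor neurons. Isl1, a LIM-homeobox factor, averaged 0.0183 TPM, and Chat, which makes acetylcholine, 0.0317 TPM. Lhx3, the partner of Isl1 in these neurons, averaged 0.670 TPM. The members that were expressed were Calca, the precursor of calcitonin and its related peptide, at 90.0, 53.6 and 64.9 TPM, Ache, the esterase that degrades acetylcholine, at 3.73, 2.94 and 2.05 TPM, and Isl2, at 1.17, 1.78 and 1.87 TPM. Calca alone thus made up most of the list's sum of 75.2 ± 18.5 TPM, and it is not confined to motor neurons. On these markers the cells are called differentiated 1464R Control cells here and are given no other cell type name.

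General neuronal genes were expressed in 11 of 24 cases, a share of 45.8%, which is not above the 50.7% of all protein-coding genes. Their summed level was 1065, 1061 and 1099 TPM. Within libraries the myelin structure list summed to 36.5 ± 3.43 times this. Eno2, the neuronal enolase, had 405, 399.6 and 424 TPM, Tubb3, a tubulin of young neurons, 338, 299 and 358 TPM, and Uchl1, a deubiquitinase, 150.4, 200.2 and 134 TPM. Eno2, Tubb3 and Uchl1 together made up most of the list's sum, and Uchl1 was higher in replicate 2 than in the others. Syt1, the calcium sensor of synaptic vesicles, had 51.6 ± 9.32 TPM, Elavl3, an RNA-binding protein of neurons, 35.7 ± 5.47 TPM, Gap43, a growth cone protein, 30.2 ± 6.15 TPM, Map2, a dendritic microtubule protein, 22.9 ± 2.82 TPM, and Nefl, the light neurofilament, 17.2 ± 4.52 TPM. Below 1 TPM were Rbfox3 (NeuN, 0.423 TPM), Snap25 (0.151 TPM) and Syp (0.697 TPM) of the synapse, Nefm (0.671 TPM) and Nefh (0.764 TPM), and Dcx, a microtubule protein of migrating neurons (0.00533 TPM). Stmn2, Nrgn and Snhg11 had no count in any library. In bulk RNA, a few cells with a high level and many cells with a low level of such a gene cannot be told apart, and neither can fewer cells of a type and less RNA per cell.

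Genes that make and load transmitters mostly lay below 1 TPM. Of 16 measured, 3 were expressed (18.8%) and 8 had no count. Gad1, for GABA synthesis, Slc32a1, for its vesicular transport, Th, for catecholamines, and Tph2, for serotonin, were among the genes without a count, and Slc17a7 and Slc17a6, the vesicular glutamate transporters, averaged 0.179 and 0.0393 TPM. Slc18a2, the vesicular monoamine transporter, averaged 1.86 TPM and Ddc, a decarboxylase of amine synthesis, 1.71 TPM.

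Receptors for glutamate and GABA were expressed in 7 of 26 cases (26.9%), and 8 had no count. Gabbr1, a subunit of the metabotropic GABA receptor, had 38.7, 40.9 and 47.2 TPM, while its partner subunit Gabbr2 averaged 0.0600 TPM. The kainate receptor subunits Grik2 (7.99 TPM), Grik5 (6.88 TPM) and Grik4 (5.24 TPM) came next, then the AMPA subunits Gria3 (2.97 TPM) and Gria2 (1.24 TPM). Grin1, the subunit that every NMDA receptor needs, averaged 0.0490 TPM. Voltage-gated channel genes were expressed in 9 of 22 cases (40.9%), which is not above the 50.7% of all protein-coding genes. Cacna2d1, an auxiliary subunit of calcium channels, had 31, 25.6 and 28.8 TPM. Kcnj10, an inward-rectifier potassium channel of glia, had 11.4 ± 2.34 TPM, and the pacemaker channel gene Hcn2 had 10.2 TPM. The pore-forming sodium channel genes Scn1a, Scn2a, Scn3a and Scn8a lay between 0.0220 and 0.728 TPM, and Scn9a had no count.

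Astrocyte markers were split between some at a high level and others without a count. Expressed members numbered 10 of 20, a share of 50%, which is close to the 50.7% of all protein-coding genes. The list's summed level was 1487, 1505 and 1514 TPM, and the myelin structure list summed to 26.2 ± 2.83 times this within libraries. Glul, glutamine synthetase, which oligodendrocytes also express, had 762, 643 and 820.2 TPM. S100b, a calcium-binding protein of both astrocytes and oligodendrocyte lineage cells, had 195, 257 and 195 TPM. Gfap, the intermediate filament of astrocytes, had 147, 165 and 99 TPM, and replicate 3 was lowest for it, whereas that library was the highest for Mbp. Aldoc, an aldolase, had 154 ± 14.5 TPM, Fgfr3, a fibroblast growth factor receptor, 121 ± 22.5 TPM, and Clu, a secreted chaperone, 56 ± 9.73 TPM. The other 10 members lay below 1 TPM. Aqp4, the water channel of astrocyte endfeet, averaged 0.0130 TPM and Slc1a3, a glutamate transporter, 0.123 TPM. Aldh1l1, a folate enzyme, Slc1a2, the main glutamate transporter of astrocytes, and Gja1 and Gjb6, their gap junction genes, had no count in any library, as had Sparcl1, Slc4a4, Acsbg1 and Mlc1.

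Neural stem cell genes were expressed in 14 of 19 cases (73.7%), beside 50.7% of all protein-coding genes. Vim, an intermediate filament of many immature cells, had 332, 483 and 322 TPM, and Id3, an inhibitor of helix-loop-helix factors, had 313, 451 and 356 TPM. For both, replicate 2 was the highest library. Sox2, a factor of stem and glial progenitor cells, was steady at 175, 184 and 174 TPM, and Nes, the filament nestin, had 55, 48.2 and 47.4 TPM. Id2 (151 ± 48.8 TPM) and Id1 (111 ± 22.3 TPM) belong to the same inhibitor family as Id3. Pax6 and Hes5, a homeobox factor and a Notch target of neural stem cells, had no count. Hes1, another Notch target, averaged 0.754 TPM, and the receptor gene Notch1 12 TPM.

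**Figure D3:**
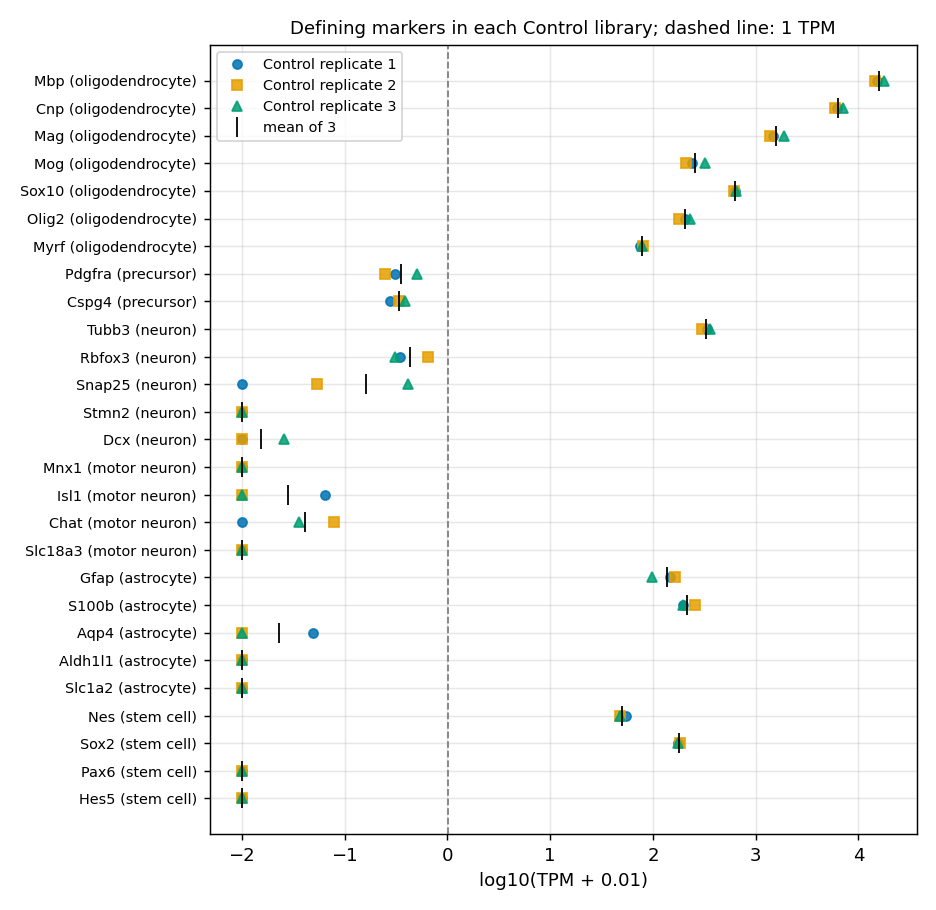
Defining markers of oligodendrocytes, their precursors, neurons, motor neurons, astrocytes and stem cells in each Control library, as log10(TPM + 0.01); symbols are libraries, the bar is the mean of the 3 and the dashed line is 1 TPM. Mbp, Cnp and Mag lie above 1000 TPM in every library, while Pdgfra, Rbfox3, Mnx1, Chat, Aqp4 and Pax6 lie below 1 TPM in every library.

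Genes of other cell types were searched as a check on what else the culture could hold. Markers of Schwann cells and neural crest were expressed in 9 of 15 cases (60%), beside 50.7% of all protein-coding genes. Ngfr, the low-affinity neurotrophin receptor, had 574, 509 and 524 TPM, Pmp2, a fatty acid-binding protein of peripheral myelin, 421, 249.9 and 457 TPM, and Erbb3, a neuregulin receptor, 253, 273 and 263 TPM. Egr2, the factor that drives peripheral myelination, was present at a low level of 14, 16.1 and 15.9 TPM. Of 15 microglia and macrophage genes 3 were expressed (20%) and 10 had no count. Cd68, a lysosomal membrane protein, and P2ry12, a purine receptor of microglia, averaged 2.18 and 1.72 TPM. Aif1, Cx3cr1, Tmem119, Ptprc and the complement genes C1qa, C1qb and C1qc had no count. None of 13 endothelial and mural genes and none of 10 skeletal muscle genes was expressed, with sums of 0.785 and 0.485 TPM. Of 14 fibroblast and matrix genes 3 were expressed (21.4%), namely Sparc (131 ± 36.1 TPM), Col6a1 (41.3 ± 11.2 TPM) and Col5a1 (16.9 ± 2.82 TPM). Col1a1 averaged 0.760 TPM, and Col1a2, Lum and Dcn had no count. Among 9 ependymal and choroid plexus genes, Dynlrb2, a dynein light chain, had 6.09, 10.0 and 15.9 TPM and Ttr, transthyretin, 1.39, 2.2 and 0.478 TPM. The values of Dynlrb2 and Ttr differed widely between libraries. They rest on few counts, 29, 45 and 65 for Dynlrb2 and 10, 15 and 3 for Ttr, so counting error is part of this spread.

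The culture medium contained retinoic acid, and 14 of 20 genes of its receptors, metabolism and response were expressed (70%), beside 50.7% of all protein-coding genes. No Control library lacked retinoic acid, so a response to it was not tested. Dhrs3, which reduces retinaldehyde back to retinol, had 993, 1093 and 1019.7 TPM. Rarb, a retinoic acid receptor, had 68.1, 71.7 and 68 TPM, and was 5.41 ± 0.840 times as abundant as its relative Rara (13.6, 14.8 and 10.7 TPM). Dhrs3 and Rarb were among the steadiest members. Rarg, the third receptor, had 1.79 TPM. Of the partner receptors Rxrb had 33.8 ± 4.70 TPM, Rxra 12.6 ± 1.71 TPM and Rxrg 0.632 TPM, and the corepressor gene Ncor1 had 23.7 ± 1.20 TPM. Crabp2, which carries retinoic acid to the nucleus, had 8.53 ± 1.35 TPM, and Crabp1 and Stra6 had no count. The degrading enzymes were low, with Cyp26b1 at 8.10, 8.66 and 3.98 TPM and Cyp26a1 at 0.812, 1.78 and 2.40 TPM. Cyp26a1 was above 1 TPM in replicates 2 and 3 only. Among the enzymes that make retinoic acid, Aldh1a3 had 1.57 TPM, Aldh1a2 0.687 TPM and Aldh1a1 no count.

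The windows of Rarb (chr15:11336142-11336441, plus strand) and Cyp26a1 (chr1:244883572-244883871, plus strand), from RefSeq on GRCr8, are shown because both hold a direct repeat of the half-site that retinoic acid receptors bind. Capitals mark the half-sites, separated by a gap of 5 bases, and in Cyp26a1 also TATAAA.
Rarb: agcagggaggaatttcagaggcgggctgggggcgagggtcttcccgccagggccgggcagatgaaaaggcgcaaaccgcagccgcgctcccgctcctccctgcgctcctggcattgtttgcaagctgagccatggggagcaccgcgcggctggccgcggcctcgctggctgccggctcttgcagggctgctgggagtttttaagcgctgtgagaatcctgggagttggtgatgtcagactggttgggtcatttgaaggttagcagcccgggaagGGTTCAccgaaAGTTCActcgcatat
Cyp26a1: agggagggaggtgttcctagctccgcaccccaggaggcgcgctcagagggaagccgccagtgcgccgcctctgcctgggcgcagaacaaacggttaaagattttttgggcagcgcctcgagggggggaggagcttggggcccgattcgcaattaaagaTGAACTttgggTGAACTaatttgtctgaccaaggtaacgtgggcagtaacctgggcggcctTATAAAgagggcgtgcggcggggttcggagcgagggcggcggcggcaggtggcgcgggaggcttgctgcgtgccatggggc
The repeat of Rarb, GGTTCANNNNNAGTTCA, began 25 bases after the start on the plus strand. That of Cyp26a1, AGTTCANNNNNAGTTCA, lay on the minus strand, 92 bases before the start, and TATAAA lay 31 bases before the start. Each of these motifs, like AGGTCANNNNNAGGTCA, was held by 3 of 33469 windows (0.00896%) when both strands were searched. The 2 genes held repeats of different spelling. Rarb over Cyp26a1 had a ratio of 50.8 ± 29.2, which rests on few counts of Cyp26a1, 22, 46 and 58. A relation between a repeat and a level was not tested.

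Regional identity factors were expressed in 7 of 27 cases, a share of 25.9%, and 6 of the 7 were midbrain, hindbrain or anterior Hoxa factors. The other was Dlx2, a factor of the ventral forebrain, at 1.59, 0.531 and 2.41 TPM. Hoxa4 had 26.6, 32.4 and 34.4 TPM, Hoxa5 32, 13.4 and 14.4 TPM and Hoxa2 12.4, 16.3 and 14.3 TPM, factors that pattern the hindbrain and anterior cord. Hoxa2 and Hoxa4 each have an entry on chromosome 4 and another on an unplaced scaffold, and the values are sums of both, so that the split of reads between the entries is uncertain. Hoxa5 is given by the scaffold entry LOC103689922. En1, a homeobox factor of the midbrain-hindbrain boundary, had 9.74, 11.4 and 13.2 TPM, and Gbx2, of the anterior hindbrain, 6.06, 1.52 and 4.06 TPM. Hoxb2, Hoxb4, Hoxb5, Hoxc4, Hoxc6, Hoxc8 and Hoxd8 had no count, nor had the forebrain genes Emx1, Emx2, Otx2 and Nkx2-1.

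Growth factor receptors were expressed in 12 of 21 cases (57.1%), near the 50.7% of all protein-coding genes. Besides Ngfr and Erbb3, the most abundant was Il6st, the shared signalling chain of the gp130 cytokine family, at 479.5, 488 and 478 TPM. Fgfr2 had 105 ± 15.7 TPM and Fgfr1 40.8 ± 6.68 TPM, and Ntrk2, the receptor of brain-derived neurotrophic factor, 40.1 ± 5.25 TPM. Egfr and Fgfr4 had no count, and Kit averaged 0.864 TPM. Of 248 genes that the deposited annotation gives as growth factors or hormones, 67 (27.0%) were expressed. Trh, the precursor of thyrotropin-releasing hormone, led them at 718, 727 and 1006 TPM, with replicate 3 apart from the other libraries. Ucn2, a peptide of the corticotropin-releasing hormone family, had 289, 252 and 314 TPM, and Pdgfa, a ligand of the receptor encoded by Pdgfra, 164, 163 and 182 TPM. Pdgfa was thus present while its receptor gene lay below 1 TPM. Gpi (289 ± 12.4 TPM) is a glycolytic enzyme that also acts outside cells, Metrn (175 ± 9.87 TPM) a secreted glial factor, Manf (168 ± 13.1 TPM) a protein of the endoplasmic reticulum stress response, Adm (164 ± 24.4 TPM) the precursor of adrenomedullin, and Gas6 (136 ± 10.6 TPM) a ligand of the TAM receptor kinases.

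Of 1043 genes annotated as DNA-binding transcription factors, 539 (51.7%) were expressed, close to the share of protein-coding genes. The most abundant was Ybx3, a cold shock domain protein that binds DNA and RNA, at 4019.9, 3309 and 4059 TPM. Several of the next were genes that respond quickly to signals or stress. Jun had 757, 743 and 795 TPM and Fos 562, 442 and 507 TPM, the partners of the AP-1 complex, and Atf3, a factor induced by many stresses, had 696, 773 and 677 TPM. Atf4, the effector of the integrated stress response, had 439.9, 408 and 366 TPM. Jun and Atf3 thus exceeded Sox10 in each library, and Olig1 exceeded both. From counts and gene length, however, Atf3 had 633 TPM and Sox10 841 TPM. The order of Atf3 and Sox10 thus depends on how TPM was computed, while Jun, at 1010 TPM, stayed above Sox10. The annotated set also held Eno1, a glycolytic enzyme (1085 ± 91.3 TPM), Cnbp, a zinc finger protein of nucleic acids (674 ± 17.9 TPM), the ribonucleoproteins Hnrnpk (564 ± 7.85 TPM) and Hnrnpab (343 ± 18.4 TPM), Scand1 (345 ± 4.84 TPM) and Tsc22d1 (349 ± 18.5 TPM). The level of Tsc22d1 from counts and gene length was 163 TPM.

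Mitotic genes were low, while a D-type cyclin and an inhibitor of the cycle were higher. Expressed members of the cell cycle list numbered 15 of 20 (75%). Mki67, present through the active cycle, averaged 0.208 TPM, Top2a, a topoisomerase of mitotic chromosomes, 0.887 TPM, Ccna2, cyclin A2, 0.111 TPM, and Aurkb, a mitotic kinase, 0.663 TPM. Cdk1 had 0.865, 0.970 and 1.41 TPM and Ccnb1, its cyclin, 1.58, 1.34 and 1.37 TPM. The members of highest level were Ccnd3, a D-type cyclin, at 113, 131 and 105 TPM, Pcna, the replication clamp that also serves DNA repair, at 100.5, 91.6 and 102 TPM, and Cdkn1a, the inhibitor p21, at 92.4, 89.1 and 92.4 TPM. Pcna and Cdkn1a varied little between libraries. The replication helicase genes ranged widely, with Mcm7 at 28.7 ± 2.40 TPM and Mcm5 at 0.472 TPM.

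Of 23 genes that cause or modify amyotrophic lateral sclerosis (ALS) in people, 20 were expressed (87.0%), with a summed level of 4371 ± 46.4 TPM. Tardbp, which encodes TDP-43 itself, had 52.9, 57.5 and 59.7 TPM of endogenous transcript, with little spread over the libraries. Pfn1, an actin-binding protein, was the most abundant at 1659, 1689 and 1679 TPM, followed by Sqstm1, an autophagy receptor, at 942, 867 and 867 TPM. Hnrnpa2b1 (496 ± 27.5 TPM) and Hnrnpa1 (159.7 ± 4.25 TPM) encode ribonucleoproteins, Vcp (373 ± 8.28 TPM) an ATPase that extracts ubiquitinated proteins, and Sod1 (372 ± 16.2 TPM) the cytosolic superoxide dismutase. C9orf72 averaged 20.0 TPM, Optn 19.7 TPM, Tbk1 16.9 TPM and Ubqln2 8.27 TPM. Kif5a, a motor of axonal transport in neurons, had 2.03, 1.30 and 2.43 TPM, Tuba4a, a tubulin, averaged 0.776 TPM, and Stmn2 and Chchd10 had no count.

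Genes of energy metabolism were expressed in 17 of 20 cases (85%). The median CV over the expressed members was 5.72%, close to the 5.94% of all genes of at least 50 TPM. After Ckb the list was led by Ldha, which turns pyruvate into lactate, at 1444, 1654 and 1565 TPM, and Atp5f1b, the catalytic subunit of ATP synthase, at 1489, 1443 and 1430.4 TPM. Aldoa (1163 ± 56.3 TPM), Eno1 and Pkm (978 ± 114 TPM) are enzymes of glycolysis. Ldhb, the other lactate dehydrogenase subunit, averaged 61.2 TPM, and Slc16a1, a lactate transporter found in oligodendrocytes, 48.9 TPM. The glucose transporter Slc2a1 had 47.9 TPM and the neuronal one, Slc2a3, 0.302 TPM. Ckmt1, the mitochondrial creatine kinase, averaged 0.0917 TPM, so that the cytosolic form made up nearly all creatine kinase mRNA of the list. Of 25 genes of translation and the cytosol, 24 were expressed (96%), with a median CV of 5.10%. Tuba1a, an alpha-tubulin of neural cells, had 3628 ± 261 TPM, Tubb4a, the beta-tubulin of oligodendrocytes and neurons, 1046, 869 and 1116 TPM, Fth1, the heavy chain of ferritin, 2296 ± 185 TPM, and Ftl1, the light chain, 2596 ± 197 TPM. Tmsb4x, an actin-binding peptide, had 401 ± 16.1 TPM. Its relative Tmsb10 was listed at 0.425 TPM, but from counts of only 1.02, 1.02 and 1 in a short entry (chr7:122433099-122433233). That value is therefore no usable measure of Tmsb10, and the levels of the 2 genes cannot be compared.

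The lineage lists did not vary in the same way between the libraries. Over all expressed genes, 28.4%, 39.0% and 32.6% were highest in replicates 1, 2 and 3, and 34.9%, 30.4% and 34.7% were lowest there. Of the 17 expressed myelin structure genes, 14 were highest in replicate 3 and 13 lowest in replicate 2. The 17 lipid synthesis genes showed this order too, with 14 highest in replicate 3 and 16 lowest in replicate 2, and of 13 lineage regulators 11 were highest in replicate 3 and 9 lowest in replicate 2. By contrast 10 of 14 expressed stem cell genes and 9 of 14 retinoic acid genes were highest in replicate 2. With TPM computed again from the counts and gene lengths, 16 of 17 myelin structure genes, 14 of 17 lipid genes and 11 of 13 regulators were highest in replicate 3, beside 31.1% of all genes, and 10 of 14 stem cell genes were highest in replicate 2, beside 40.2%. The members of a list share their libraries and are not independent, and these counts were not tested. The depth of replicate 3 was the lowest of the 3, with 20801000 counts beside 22037200 and 23119700, and its mitochondrial mRNA share of 5.39% lay within the range of the others. By counts this share was 2.03%, beside 2.12% and 2.23%, mitochondrial ribosomal RNA took 0.720% of its TPM, beside 0.810% and 0.835%, and ribosomal protein genes 4.79%, beside 4.98% and 5.17%, so that replicate 3 was lowest in these 3 measures. The part of these measures in the order of the libraries was not tested.

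**Figure D4:**
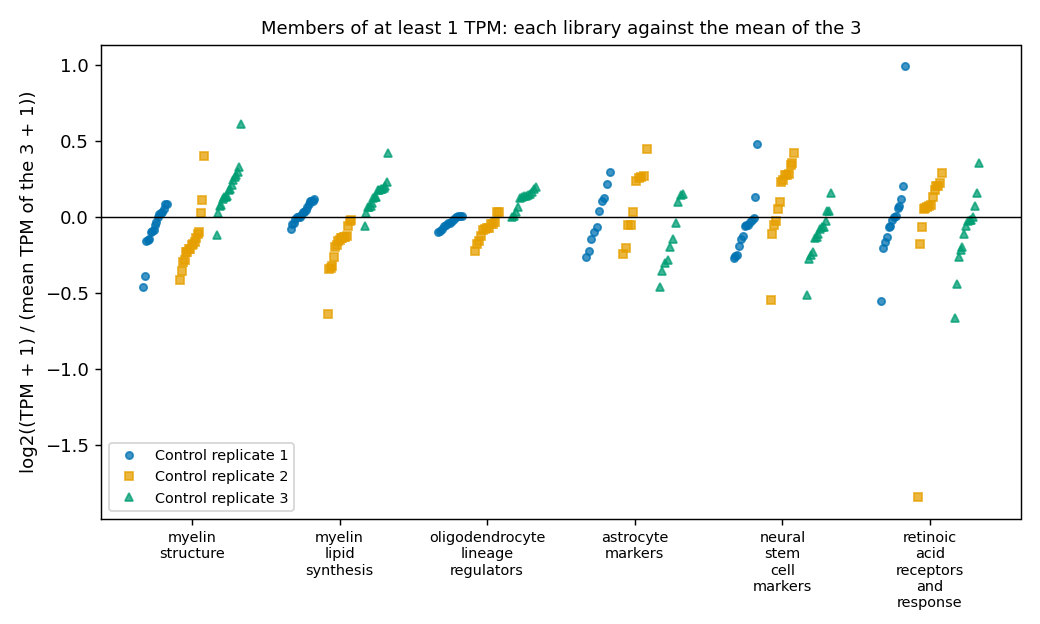
Expressed members of 6 lists in each Control library relative to the mean of the 3, as log2((TPM + 1)/(mean TPM + 1)); each symbol is 1 gene in 1 library, in ascending order within the library, and 0 is the mean. Symbols of replicate 3 lie mostly above 0 for the myelin structure, lipid and regulator lists and those of replicate 2 mostly below, whereas for stem cell genes replicate 2 lies mostly above 0.

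Single genes that varied most included a cytokine, a lipid carrier and a myelin gene. Among genes of at least 50 TPM, Il17d, a cytokine of the IL-17 family (chr15:37790141-37807660), had the largest CV, with 20.0, 143 and 14.7 TPM. Its counts were 175, 198 and 113, and the high TPM of replicate 2 thus stood beside a count close to that of replicate 1. Without replicate 2 the mean of Il17d was 17.3 TPM. Then came 2 processed pseudogenes, AABR07059379.1 and AABR07002792.2, whose means rest on 1.33 and 9.11 counts and, without replicate 2, were 30.3 and 66.5 TPM beside 68.6 and 103 TPM over all 3 libraries (AABR07059379.1 had 103 TPM without replicate 1). Apoe, which carries cholesterol between glia and neurons, had 60.7, 89.1 and 21.3 TPM, and its counts of 884, 1214 and 277 moved in the same order. Mobp followed, with counts of 764, 635 and 1414. Syt4, a synaptotagmin, had 254, 134 and 161 TPM, Id2 145, 202 and 105 TPM, and Emp3, a membrane protein of the PMP22 family, 58.2, 90.5 and 50.6 TPM. Apoe, Id2 and Emp3 were each highest in replicate 2 and lowest in replicate 3. The steadiest genes were Imp4 of the ribosomal RNA processome, with 91.5, 91.8 and 91.6 TPM, Chmp2a of the ESCRT machinery, Actr2 of the actin-nucleating complex, Trim28, a corepressor, and Ap2s1 of the clathrin adaptor, with CVs of 0.166% to 0.308%. A CV over 3 libraries is itself imprecise, and the extremes of the order were picked from 3233 genes.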

How the data were processed

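Total RNA of the Control cells was copied to cDNA with a SMART-Seq v4 kit, tagmented with Nextera XT and sequenced. Per the labels and the file headers the authors ran DRAGEN against Rnor_6.0 with Ensembl annotation, and the submitters' processing notes also name bcl2fastq 2.20, R 3.6.0 and DESeq2 1.26.0. The authors deposited expected counts, which need not be whole because reads shared by several genes are split, and TPM, which are scaled by transcript length and to 1000000 per library. The kit does not mark strand, so reads from overlapping antisense genes cannot be told apart. TPM was also computed from the deposited counts and gene lengths, and 11812 genes had a mean of at least 1 TPM by that measure. Of these, the deposited TPM was within 10% for 15.1% and within 2-fold for 96.8%. How the deposited TPM was weighted is not given in the sources used here. Columns of the 3 Control libraries were read by name and their means and SDs computed (Python 3.11.15, numpy 2.4.6, pandas 2.3.3). No group comparison and no test was made, and some genes that the naming rule covers are not reported here. Genes were named by rule, as the 20 most abundant, the leading members of each of 24 lists and its defining members under 1 TPM, 12 transcription factors, 8 growth factors or hormones, and the 8 most and 5 least variable genes of at least 50 TPM, and a few further members were named after their values were seen. The members and lists were chosen with earlier results of these data known. The spread was estimated with edgeR 4.0.16 (R 4.3.3) on counts rounded to whole numbers, with TMM factors of 0.984 to 1.02. Its default filter kept 11937 genes. The estimate was checked on counts simulated with the same spread for every gene, which does not test it for genes that differ in spread. DESeq2 1.42.0 size factors, other minimums, pseudocounts of 1 and 0.1, recomputed TPM, medians and leaving out each library were tried as alternatives. Motifs were searched in 33469 RefSeq windows of GRCr8, a later build whose coordinates were not mixed with those of Rnor_6.0. Depth was 20801000 to 23119700 counts per library, and floors cover counting error only.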

Additional observations from a re-analysis of the deposited data

How the results depend on the processing

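The levels were those most sensitive to how TPM was made. With TPM recomputed from the counts and gene lengths, Mbp averaged 19777 TPM and Ckb 12972 TPM, and the myelin structure, pan-neuronal and astrocyte lists summed to 49093, 1321 and 1935 TPM, each higher than with the deposited TPM by more than 1 SD. Of 219 other named levels of at least 10 TPM, 213 stayed within 2-fold and 6 were lower by more than 2-fold, namely Mobp, Dbi, Tsc22d1, Il17d, AABR07059379.1 and AABR07002792.2. The motor neuron sum was 68.2 TPM, within 1 SD of the deposited value. Without each replicate in turn, Mbp ranged over 14834 to 16574 TPM, Ckb over 10711 to 11320 TPM, the myelin structure sum over 36929 to 41309 TPM, the pan-neuronal sum over 1063 to 1082 TPM, the motor neuron sum over 65.0 to 83.1 TPM, the astrocyte sum over 1496 to 1509 TPM, the share of the 10 leading genes over 10.2% to 10.4%, the number of expressed genes over 11792 to 11884, and the biological coefficient of variation over 0.125 to 0.145. Medians in place of means gave 15284 TPM for Mbp, 11190.5 TPM for Ckb, 38551 TPM for the myelin structure sum and 11789 expressed genes. A median of 3 values always lies within 1 SD of their mean, so a distance in SD is no check here. The number of expressed genes was 12761 with a minimum of 0.5 TPM, 9370 with 5 TPM and 11215 when every library had to reach 1 TPM. The biological coefficient of variation was 0.134 with DESeq2 size factors and 0.154 with no filter. It has no value for recomputed TPM or for medians. The correlation of libraries was 0.966 to 0.967 with a pseudocount of 0.1. No paired analysis was possible because a single group was described and no test was run. The count of members highest in a library was repeated on recomputed TPM, an alternative chosen after seeing the data. With 3 libraries, genes of few counts have the least certain levels, and a gene without a count is not shown to be absent at this depth.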
